A study of Mus musculus with 3 samples.

Results

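The transcription factor NRF2 and the repressor BACH1 compete for the same DNA element, and 10 genes around that switch were read in brown adipocytes stimulated with isoproterenol (ISO). They are Bach1, Nfe2l2 (which encodes NRF2), Keap1, Hmox1, Nqo1, Gclm, Gclc, Osgin1, Cbr3 and Txnrd1. They were chosen by name, and for the increases of Bach1, Osgin1 and Cbr3 on these same arrays, so their changes are given as a description and no support is drawn from them. All 10 had at least 1 probe set on the array, 17 in all, and 9 of the 10 reached a signal of 100 on 1 or more arrays. Over the whole array 6896 genes did so.

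Gene expression was measured in differentiated iBATs, immortalized brown adipocytes, at 0, 1 and 2 h of ISO, a β-adrenergic pan-agonist given at 1 μM, with 1 Affymetrix array per time point. In all 3 groups the cells came from the stromal vascular fraction of interscapular brown fat of C57BL/6 mice at postnatal day 3, carried SV40 large T antigen under puromycin selection, and were induced with insulin and indomethacin and kept in insulin until day 8. The 0 h cells received no ISO. Each value is a MAS5 signal, the summarized brightness of a probe set on a linear scale. A probe set is a group of short probes against 1 transcript or, for some, against several transcripts that share the sequence.

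With a single array at each time, the spread between replicates is unknown, no test was possible, and changes are called by size alone. A gene was read from its brightest probe set among those at 100 or more on 1 or more arrays, and called higher or lower at 2^0.8-fold (1.74-fold, a log2 ratio of 0.8). Both ISO time points are set against the same 0 h array, so an error in that array would enter both ratios. As a yardstick, the robust spread of log2 ratios among genes of like signal is given beside some values; it holds real change as well as noise.

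The cells had the markers of their label. All 5 adipocyte markers on the array were read, among them Fabp4, a fatty acid carrier, with signals of 7490.0, 7871.8 and 7095.6 at 0, 1 and 2 h. Their log2 ratios at 1 and 2 h were 0.07 and -0.08 for Fabp4, 0.10 and -0.18 for Adipoq, 0.00 and 0.40 for Cidea, 0.40 and 0.66 for Pparg, and 1.31 and 1.49 for Ucp1, a gene that responds to β-adrenergic agonists. Of 6 macrophage and leukocyte and 4 endothelial markers none reached 100. Of 5 preadipocyte and fibroblast markers 4 did, with log2 ratios between -0.18 and 0.18 at both times. The brightest of them, Col1a2, had signals of 4132.8, 4557.0 and 3934.4, near those of Adipoq, 4986.4, 5329.8 and 4388.8. As a sign of RNA integrity, the 3′ over 5′ signal ratio of β-actin was 1.61, 1.61 and 1.60 at 0, 1 and 2 h. The median log2 ratio over all genes read was -0.02 at 1 h and -0.07 at 2 h.

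KEAP1 is an adaptor that holds NRF2 in the cytoplasm for ubiquitination, and electrophiles and oxidants disable it. Released NRF2 pairs with a small MAF protein and binds antioxidant response elements, which control genes of glutathione synthesis, quinone and carbonyl reduction and heme breakdown. BACH1 pairs with the same MAF proteins, occupies the same elements and represses them, and heme removes it. In brown fat, thermogenic respiration is a source of reactive oxygen species.

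The promoter sequences are shown for the 3 genes whose increases led to the choice of the set, and for those with an antioxidant response element core close to the start site. RefSeq windows from 250 bases before to 50 bases after the transcription start (build GRCm38.p6) were matched for 8 of the 10 genes, with 1 window each and 3 for Txnrd1. Hmox1 and Gclc had no entry. They were searched on both strands for the antioxidant response element core TGACNNNGC, the cyclic AMP response element TGACGTCA, the short form of it, TGACG, and the AP-1 site TGANTCA. The short form lies within the full element and can overlap the antioxidant core. The lines below give the 250 bases before the start, 5′ to 3′ on the strand of the gene, with matches in capitals.

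Bach1, chr16:87698704-87698953, plus strand: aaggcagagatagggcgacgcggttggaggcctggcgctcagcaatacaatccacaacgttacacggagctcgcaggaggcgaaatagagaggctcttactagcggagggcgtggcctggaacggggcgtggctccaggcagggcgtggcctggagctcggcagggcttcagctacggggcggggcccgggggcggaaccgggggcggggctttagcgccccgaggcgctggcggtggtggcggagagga
Osgin1, chr8:119436897-119437146, plus strand: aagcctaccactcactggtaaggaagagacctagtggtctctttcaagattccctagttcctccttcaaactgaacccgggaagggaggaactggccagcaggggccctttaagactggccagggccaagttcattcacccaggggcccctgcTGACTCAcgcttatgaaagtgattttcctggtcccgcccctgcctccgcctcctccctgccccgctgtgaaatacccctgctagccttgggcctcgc
Cbr3, chr16:93682969-93683218, plus strand: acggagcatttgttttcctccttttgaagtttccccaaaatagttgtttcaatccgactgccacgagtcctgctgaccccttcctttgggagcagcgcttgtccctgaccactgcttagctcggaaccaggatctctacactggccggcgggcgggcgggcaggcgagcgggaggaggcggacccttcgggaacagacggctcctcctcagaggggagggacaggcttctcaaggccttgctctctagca

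The whole windows of Bach1 and Cbr3 held none of the 4 motifs. That of Osgin1 held 1 match to the AP-1 letters, shown in capitals at window positions 154 to 160. The antioxidant response element was searched in the spelling TGACNNNGC alone. Whether the Osgin1 site is another form of the element that NRF2 and BACH1 share was not tested. A match is a run of letters and not a demonstration of binding, and its absence says only that these letters are not in the window.

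In the spelling searched, the antioxidant core was found in windows of 3 members, Nfe2l2, Gclm and Txnrd1, each once. These stretches are shown because the core is the form searched of the element that NRF2 and BACH1 share, with the core in capitals.

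Nfe2l2, chr2:75704870-75704913, minus strand: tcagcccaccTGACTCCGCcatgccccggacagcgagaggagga
Gclm, chr3:122245398-122245456, plus strand: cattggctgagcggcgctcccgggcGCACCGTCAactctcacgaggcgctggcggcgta
Txnrd1, chr10:82859089-82859147, plus strand: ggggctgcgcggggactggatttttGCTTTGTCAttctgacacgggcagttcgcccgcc

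In Nfe2l2 the core reads along the gene, as TGACTCCGC, and in Gclm (TGACGGTGC) and the second Txnrd1 window (TGACAAAGC) it reads on the opposite strand. None of these 3 genes was called at 1 or 2 h, and nor were most genes. Of all 6896, 1.58% were higher and 0.218% lower at 1 h, and 2.73% and 0.812% at 2 h. Hmox1 and Gclc, both called at 2 h, had no window to search. Nothing is therefore read from the core and the calls together. The short form was present in Gclm, inside the antioxidant core, and in Txnrd1, and the full element in no member. Of 32851 promoter windows of the same length, 12.4% held the antioxidant core, 1.79% the full cyclic AMP element, 20.8% its short form and 7.81% the AP-1 site.

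Bach1, Gclc, Cbr3 and Hmox1 were higher after 2 h of ISO than at 0 h, by 2.11-, 1.96-, 2.20- and 2.28-fold, whereas Nfe2l2, Keap1, Gclm and Txnrd1 had log2 ratios between -0.06 and 0.32. After 1 h, 2 of the 9 genes read were called higher, Bach1 and Osgin1, and none lower. Over all 6896 genes 1.58% were called higher and 0.218% lower at 1 h. After 2 h, 4 of 9 were called higher and none lower, where 2.73% of all genes were higher and 0.812% lower. The median log2 ratio of the 9 was 0.61 at 1 h and 0.57 at 2 h. The 2 h median is the value of Osgin1, which was below 100 on both arrays compared. It lies between 0.32 for Nfe2l2 and 0.97 for Gclc. Since the set was chosen with these increases known, nothing is read from its counts against those of all genes.

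**Figure D1:**
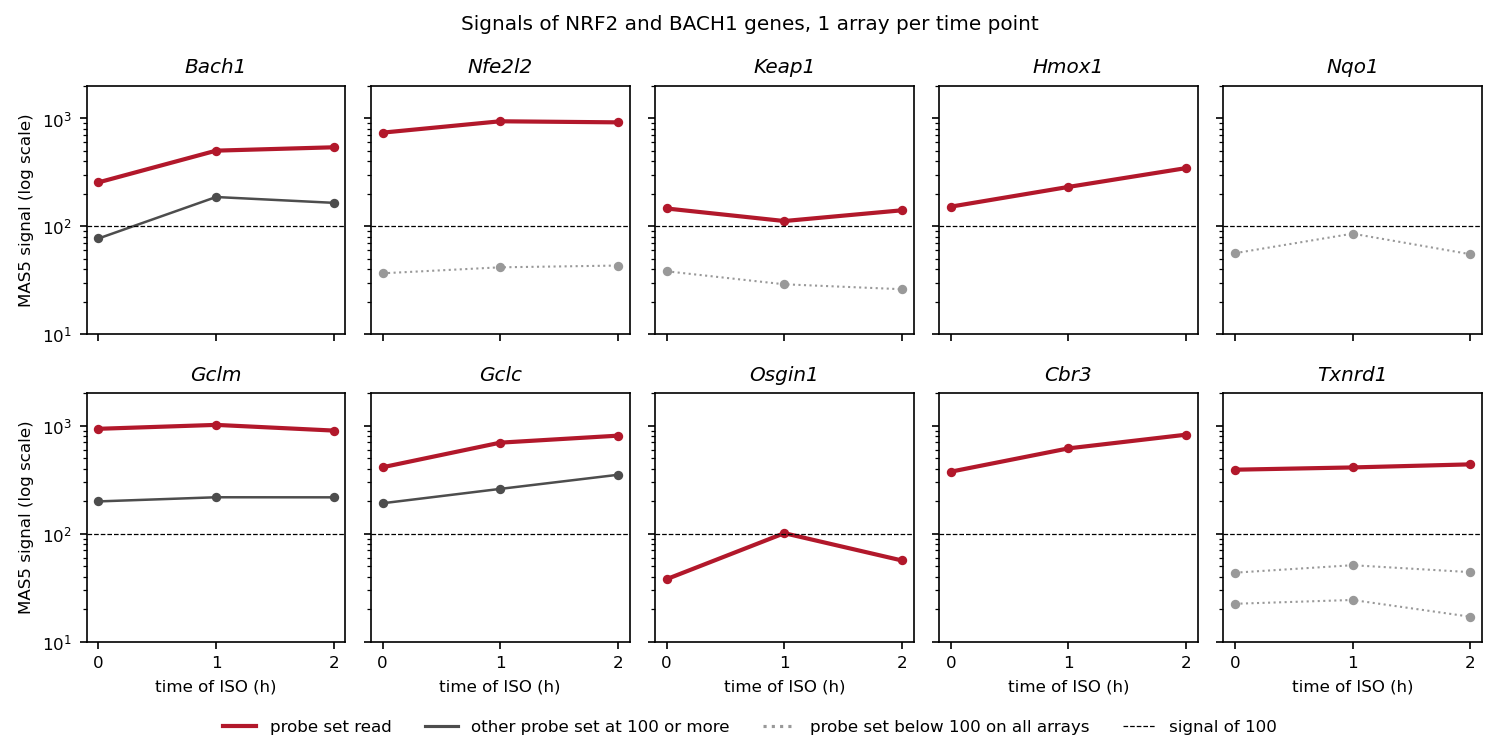
MAS5 signal (vertical axis, log scale) at 0, 1 and 2 h of ISO (horizontal axis) for all 17 probe sets of the 10 genes, each from a single array, so that error bars cannot be drawn. Every probe set of Bach1, Gclc, Cbr3 and Hmox1 is higher at 2 h than at 0 h, and the dimmer one of Bach1 is highest at 1 h. Osgin1 touches the dashed line at 100 on the 1 h array alone, and Nqo1 stays below it.

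Bach1, the repressor, was read at 255.9 before ISO, 503.6 after 1 h and 541.1 after 2 h on the brighter of its probe sets. Nearly all of the increase was present at 1 h. Against 0 h the log2 ratios were 0.98 and 1.08, beside a spread of 0.14 and 0.23 among genes of like signal. It held rank 83 of 6896 genes from the highest at 1 h and rank 117 at 2 h. A second, dimmer probe set of Bach1 had signals of 77.3, 187.3 and 165.4. It passed the threshold at both times as well, with log2 ratios of 1.28 and 1.10. The dimmer probe set was below 100 at 0 h and was admitted through the ISO arrays alone, so its calls add no support.

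Nfe2l2, which encodes the activator NRF2, had signals of 739.5, 942.1 and 920.9 at 0, 1 and 2 h. The log2 ratios of 0.35 and 0.32 were below the threshold, with a spread of 0.13 and 0.18 among genes of like signal. Its other probe set stayed between 36.8 and 43.4. The transcript of the activator was therefore higher by 1.27-fold and 1.25-fold, and that of the repressor by 1.97-fold and 2.11-fold. The protein of NRF2 is controlled largely by degradation, which arrays do not measure.

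Keap1, the adaptor that marks NRF2 for degradation, had signals of 146.6, 112.2 and 141.1. It was the lowest of the 9 at 1 h, with a log2 ratio of -0.39 that did not pass, and was back near its starting signal at 2 h, with -0.06. After quantile normalization the 2 h value is 0.01, so its sign there is not settled. The second Keap1 probe set was below 100 throughout, at 38.4, 29.1 and 26.2.

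Hmox1 encodes heme oxygenase, which breaks down heme and is the classic gene repressed by BACH1. Its signal was 152.5 before ISO, 232.3 after 1 h and 347.1 after 2 h. Each hour added an increase of similar size on the log2 scale, 0.61 in the first and 0.58 in the second. The log2 ratio at 2 h was 1.19, the highest of the 9 genes, and it held rank 100 of 6896. Hmox1 was not called at 1 h. Macrophages also express Hmox1. The summed signals of the 6 macrophage and leukocyte markers were 128.8, 123.6 and 203.1, with Cd14 at 34.6, 41.8 and 93.2, Cd68 at 58.9, 54.5 and 81.2, Csf1r at 20.4, 16.3 and 15.2, Itgam at 5.6, 3.3 and 2.8, and the defining markers Adgre1 and Ptprc at no more than 9.8 and 0.9. Their part in the value of Hmox1 was not tested. In cell populations of this kind, more cells of a type and more RNA per cell cannot be told apart.

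Gclc and Gclm encode the catalytic and the modifier subunit of glutamate-cysteine ligase, the first step of glutathione synthesis. Gclc had signals of 412.2, 696.7 and 808.6 at 0, 1 and 2 h. Its log2 ratio was 0.76 at 1 h, just under the threshold, and 0.97 at 2 h. The other probe set of Gclc had signals of 191.2, 259.8 and 350.9 and log2 ratios of 0.44 and 0.88. Both therefore passed at 2 h and neither at 1 h.

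Gclm gave 936.0, 1017.6 and 901.4 on the brighter of its probe sets. Its log2 ratios were 0.12 and -0.05, and the median over both probe sets at 2 h is 0.04. The dimmer probe set was at 198.9, 217.3 and 217.0, with log2 ratios of 0.13 and 0.13. At 2 h the catalytic subunit was at 1.96-fold of 0 h and the modifier subunit at 0.963-fold. With 1 array each this difference between the subunits was not tested.

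Cbr3 encodes a carbonyl reductase that uses NADPH. Its signal was 375.0 before ISO, 616.6 after 1 h and 825.8 after 2 h, so it continued to climb in the second hour. The log2 ratio of 0.72 at 1 h was under the threshold, and that of 1.14 at 2 h held rank 106 of 6896. Among genes of like signal the spread was 0.13 at 1 h and 0.19 at 2 h. Cbr1, a close paralog, had signals of 770.9, 1001.3 and 840.5. Its log2 ratios of 0.38 and 0.13 did not pass, and it was lower at 2 h than at 1 h whereas Cbr3 was higher.

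Osgin1, an oxidative stress-induced growth inhibitor gene, had a signal of 37.9 before ISO, 101.0 after 1 h and 56.4 after 2 h. It was highest at 1 h and was the 1 member that passed in the second hour, with a log2 ratio of -0.84 for 2 h over 1 h. Over all genes 0.319% were lower and 0.667% higher in that step, and no member was higher. Its log2 ratios to 0 h were 1.41 and 0.57. The gene was read through the 1 h array alone, and a gene admitted by its highest array had to differ from the others. Among genes this dim the spread was 0.38 at 1 h and 0.43 at 2 h. With signals below 100 set to 100 the log2 ratio at 1 h is 0.01 and the call ends.

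Osgin1 lay just inside the signal limit, at 101.0 on 1 array, and Nqo1 lay just outside it. Nqo1, a quinone reductase and a gene commonly used to read NRF2 activity, had signals of 56.5, 85.7 and 55.3 at 0, 1 and 2 h. It was below 100 on every array, so no ratio is read from it. Txnrd1, the cytosolic thioredoxin reductase, had signals of 391.2, 410.6 and 438.4. Its log2 ratios of 0.07 and 0.16 were within the spread of genes of like signal, 0.15 and 0.21. Its other 2 probe sets were below 100.

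**Figure D2:**
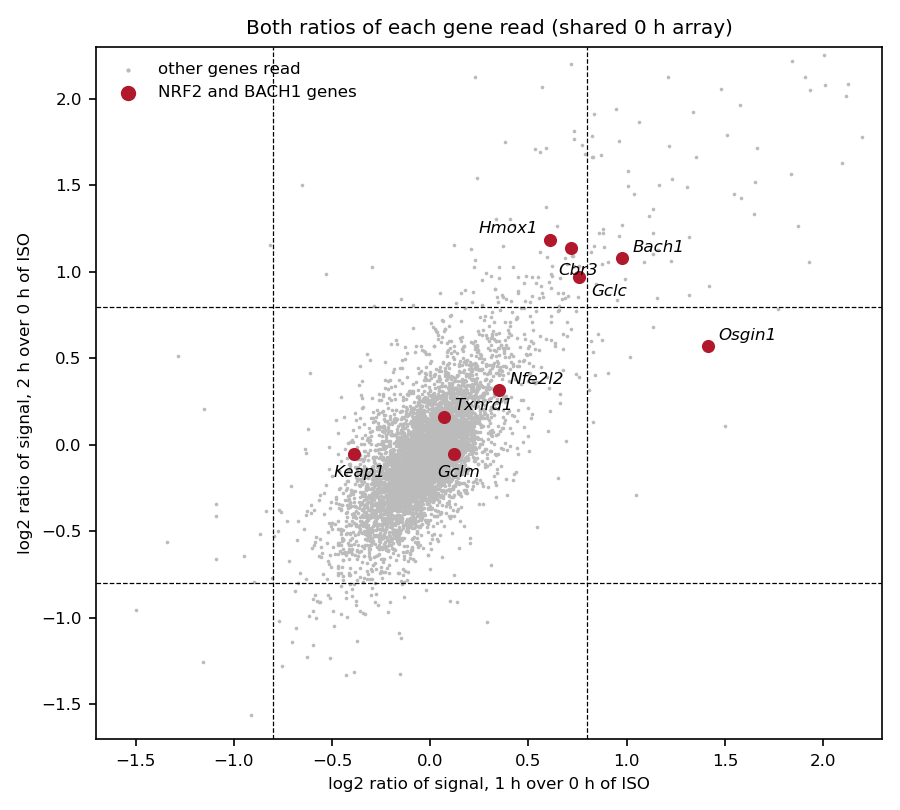
Log2 ratio of signal at 1 h over 0 h (horizontal axis) against 2 h over 0 h (vertical axis) for the genes read, with the 9 members in red and dashed lines at 2^0.8-fold; 35 genes lie outside the range drawn. The 0 h array enters both axes. Bach1 is past both upper lines, Hmox1, Cbr3 and Gclc are past the 2 h line, and Osgin1 is past the 1 h line.

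The genes differed in when the increase came. Bach1 reached its level in the first hour, with a log2 ratio for 2 h over 1 h of 0.10 on the probe set read and -0.18 on the dimmer one. Gclc had 0.22 on the probe set read and 0.43 on the dimmer one, Cbr3 had 0.42 and Hmox1 had 0.58. Osgin1 was highest at 1 h, the array through which alone it was admitted. None of the increases in the second hour passed the threshold.

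By straight-line distance between the pair of log2 ratios over the 3 arrays, the genes with the courses most like Bach1 were Atg101 (0.08), an autophagy gene, Fgf7 (0.11), a growth factor gene, and Zfp36 (0.11), an mRNA decay factor. Those most like Cbr3 were Hk2 (0.03), Jun (0.05), an AP-1 member, and Klb (0.05), the β-Klotho coreceptor. Hk2, which encodes a hexokinase, had signals of 552.9, 923.0 and 1201.7. Those most like Osgin1 were farther away, Angptl8 (0.30), Klf10 (0.31) and Grasp (0.35). Angptl8, a secreted regulator of lipoprotein lipase, had signals of 90.9, 199.8 and 145.5 and Klf10, a zinc finger factor, had 158.9, 395.4 and 289.7. Grasp, with signals of 50.2, 134.2 and 94.9, was admitted through the 1 h array alone, as Osgin1 was. Angptl8 and Zfp36 were below 100 at 0 h and were admitted through the ISO arrays alone. For these genes the filter fixed part of the course. A likeness over 3 arrays describes the course alone.

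Outside the 10 genes, Maff, a small MAF gene, was past the threshold at both times. A wider list of 60 genes of NRF2 regulation, heme and iron, glutathione, NADPH supply, peroxide removal and conjugation was read for 44. Of the others, 11 stayed below 100 on all arrays and 5 had no probe set with their symbol alone. Of the 44, 1 gene, the same at both times, was called higher at 1 h and at 2 h, and none lower, beside 1.58% and 2.73% of all genes higher and 0.218% and 0.812% lower. A count of 1 in 44 is near those shares, and so is a count of 0 in any of the roles that follow, so neither is a result about the pathway. The median log2 ratio of the 44 was 0.00 at 1 h and -0.04 at 2 h, and 41 of them were within 0.4 at both times. The 3 beyond it at 1 or both times were Maff, Slc3a2 and Srxn1, all with log2 ratios above 0.

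Maff, a small MAF that serves as partner of both NRF2 and BACH1, was the gene called. It had signals of 106.9, 318.6 and 417.8 at 0, 1 and 2 h. Its log2 ratios of 1.58 and 1.97 were above those of every one of the 9 members at both times. Mafg, another small MAF, had signals of 304.7, 342.1 and 313.0 and log2 ratios of 0.17 and 0.04. Mafk stayed at or below 66.7, and Bach2, the relative of Bach1, at or below 69.5. Among the regulators of NRF2 degradation, Cul3, the ubiquitin ligase scaffold that KEAP1 recruits, had log2 ratios of -0.04 and 0.03. Sqstm1, the autophagy receptor that binds KEAP1, had 0.32 and 0.32. Nfe2l1, a relative of Nfe2l2, had 0.13 and -0.17.

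The 7 genes of heme and iron, none of them called, had log2 ratios at 2 h between -0.30 for Fech, which inserts iron into heme, and 0.25 for Alas1, the first enzyme of heme synthesis. Both ends depend on the probe set. At 2 h other probe sets of Fech were at -0.001 and -0.09, and another of Alas1 was at 0.56. Hmox2, the constitutive heme oxygenase, had signals of 469.4, 468.3 and 441.8, against the climb of Hmox1. Blvra and Blvrb, which encode the biliverdin reductases downstream, had log2 ratios of -0.06 and 0.01 at 2 h. Fth1, the ferritin heavy chain, had 0.04 on its brighter probe set and -0.26 on the other, which had signals of 4656.1, 4503.3 and 3896.0.

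Among 7 glutathione genes, none of them called, Slc3a2, the heavy chain of the cystine and other amino acid transporters, came closest to the threshold, with signals of 733.2, 1186.9 and 1134.7 and log2 ratios of 0.70 and 0.63. Its partner in cystine uptake, Slc7a11, stayed at or below 15.2. Gss, the second enzyme of glutathione synthesis, had signals of 101.6, 86.5 and 103.3, and Gsr, glutathione reductase, had 225.6, 211.7 and 231.4. The 5 genes of NADPH supply had log2 ratios between -0.20 and 0.23 at 1 h, 3 of them above 0, and between -0.33 for Idh1 and -0.03 for Taldo1 at 2 h. At 2 h 4235 of all 6896 genes were below 0, and 1 dimmer probe set of Pgd was at 0.08.

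The 7 genes for thioredoxin, peroxide and superoxide included none that was called. Srxn1, sulfiredoxin, which repairs oxidized peroxiredoxins, had signals of 271.7, 340.4 and 415.1 and a log2 ratio of 0.61 at 2 h. Its dimmer probe set had 57.6, 60.5 and 101.5, a log2 ratio of 0.82 at 2 h. That probe set was admitted through the 2 h array alone. Cat, catalase, had signals of 2059.3, 1752.0 and 2667.7, with log2 ratios of -0.23 at 1 h and 0.37 at 2 h. Its dimmer probe set did not share this course, with 1612.0, 1660.6 and 1673.8 and log2 ratios of 0.04 and 0.05. The 11 conjugation, carbonyl reduction and export genes, none of them called, had log2 ratios at 2 h between -0.31 for Cbr2 and 0.17 for Ephx1, an epoxide hydrolase.

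**Figure D3:**
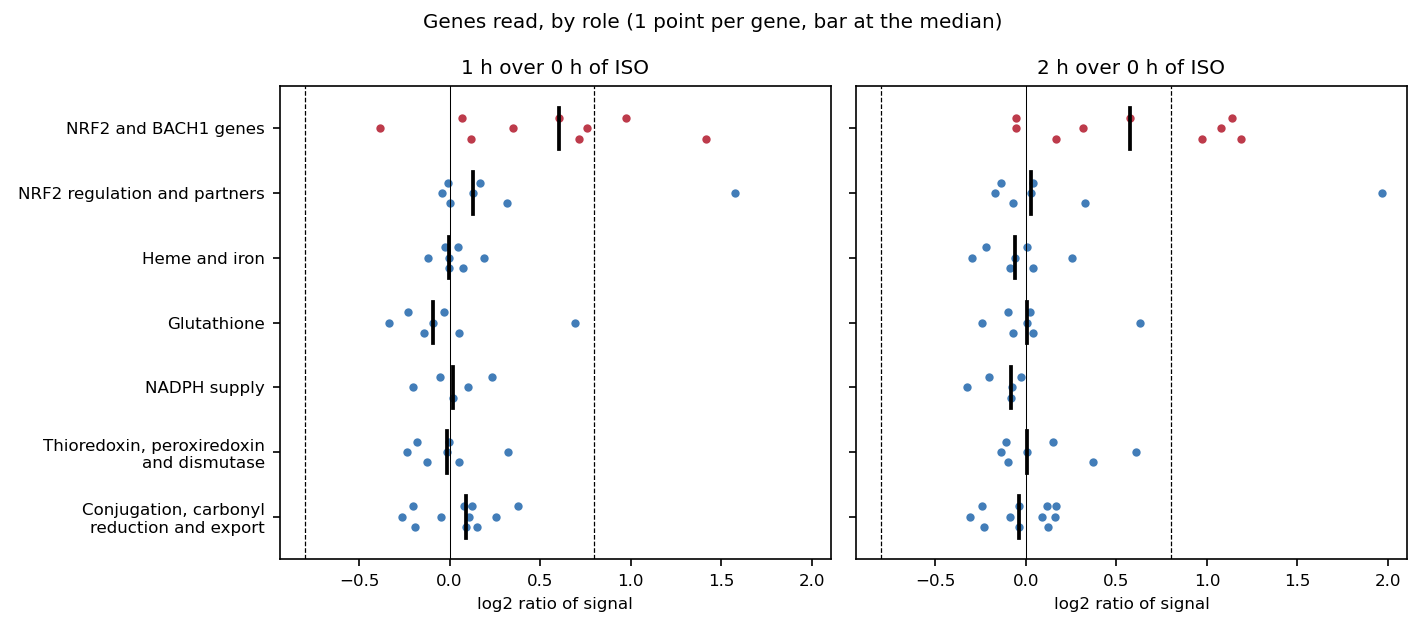
Log2 ratio of signal at 1 h over 0 h (left) and 2 h over 0 h (right) for the 9 members in red and the 44 genes of the wider list in blue, with a point for each gene. The median of a row is drawn as a black bar and the 2^0.8-fold limits as dashed lines; Maff, at 1.58 and 1.97, is the blue point past the line.

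Of the calls, that of Osgin1 moved most with the setting. Bach1, Hmox1, Gclc and Cbr3 were past the threshold at 2 h under all 9 other filters, scalings and choices of probe set. Bach1 was past it at 1 h under the same 9. At a threshold of 2-fold Gclc at 2 h and Bach1 at 1 h were not. The other filters, setting signals below 100 to 100, and leaving out probe sets of shared sequence returned unchanged values for Bach1, Hmox1, Gclc and Cbr3. Those settings could not move the calls. With every array scaled to the same median, Gclc (0.86) and Cbr3 (0.82) pass at 1 h too, in a setting that raises the median of all genes by 0.10.

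**Figure D4:**
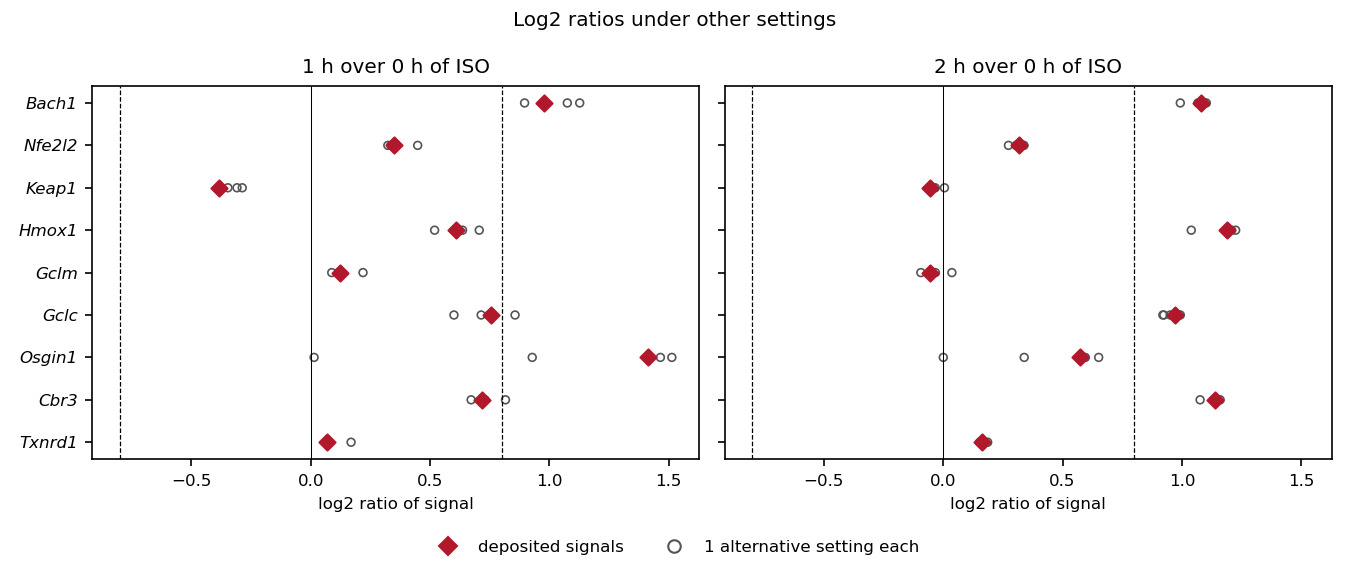
Log2 ratio of each of the 9 members at 1 h over 0 h (left) and 2 h over 0 h (right) from the deposited signals (red diamonds) and under each other setting (open circles), with dashed lines at 2^0.8-fold. The circles of Osgin1 at 1 h run between 0.01 and 1.51, and those of Bach1 between 0.90 and 1.13.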

How the data were processed

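Labelled RNA was hybridized by the authors to Mouse Genome 430 2.0 arrays (Affymetrix), and the deposited table holds the MAS5 signal, a linear intensity, of every probe set. The deposited arrays share a mean of 100.0 after trimming 2% from each end. The filter on absent calls in the methods is not applied in these values. Of 45101 probe sets, 34958 had 1 gene symbol, 932 several and 9211 none in the array annotation. Of those with 1 symbol, 34754 were matched to RefSeq by gene identifier and none changed.

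Log2 ratios were taken with Python 3.11.15, numpy 2.4.6, pandas 2.3.3 and scipy 1.17.1, and plotted with matplotlib 3.10.9. Signals of 0 were given 0.1. Filters were applied to the signals of each scaling. The spread is 1.4826 times the median absolute deviation in 20 bins of mean signal. The calculation was tested on simulated data. The members and lists were chosen with earlier results of these data known. Named genes are all members, every gene of the wider list past the threshold, and further genes of each role. Up to 5 further genes were planned per role, and NRF2 regulation and heme and iron have more. The 3 genes nearest in course to Bach1, Osgin1 and Cbr3 are named too, and Cbr1. Alternatives were other filters, treatments of low signals, scalings, probe sets and a 2-fold threshold. The number of arrays limits the precision. No protein sequences were used here.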

Additional observations from a re-analysis of the deposited data

How the results depend on the processing

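The counts of called members moved with Osgin1 and, in some settings, with other members. Members higher at 1 h were 1 instead of 2, Bach1 alone, under 3 settings. These were 100 on all 3 arrays, 200 on 1 or more, and signals below 100 set to 100. At 2-fold the 1 member was Osgin1. With arrays scaled to the same median there were 4, with Cbr3 and Gclc added. The 1 member lower at 2 h than at 1 h was 0 under the 3 settings named first, with 32 added and at 2-fold. Members higher at 2 h were 3 instead of 4 at 2-fold, without Gclc. The median of the members was 0.35 at 1 h and 0.32 at 2 h with signals below 100 set to 100, and 0.97 at 2 h with at least 200. The wider list had 3 genes higher at 1 h, 2 higher at 2 h and 3 lower at 2 h with no filter, where signals near 0 enter. Without probe sets of shared sequence it had 2 higher at 2 h, Maff and Srxn1. Srxn1 was then read from its dimmer probe set, admitted through the 2 h array alone, so that call adds no support.

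Of 154 single-member values under alternatives, 151 kept their side of the threshold, and none that was called changed sign. Many of the 154 reread the same probe set at the same signals and could not differ. Osgin1 had no value with 100 on all arrays or 200 on any, Keap1 none with 200, and Txnrd1 none without shared-sequence probe sets. Over all genes, higher and lower calls for 2 h over 1 h were 36 and 28 with the same median, 56.2% higher against 67.6%. The 109 higher and 15 lower at 1 h were 56 and 5 with 100 on all arrays and 2181 and 2188 with no filter. The 188 and 56 at 2 h were 109 and 12, and 2410 and 2164. No paired analysis was possible because there was 1 array per time point.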
